A study of Mus musculus with 6 samples.

Results

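The microRNAs (miRNAs) named miR-297, miR-466, miR-467 and miR-669 are a set of related mouse sequences, most of which are cut from hairpins packed into a single intron of the gene Sfmbt2. Members were chosen by name alone: every mouse-named entry whose base name was miR-297, miR-466, miR-467 or miR-669, with or without further letters, in any arm or variant. This gave 70 of 1080 listed rows. Rows with the same values in all 6 libraries were counted once, which left 61 members among 1046 entries, made up of 5 miR-297, 23 miR-466, 9 miR-467 and 24 miR-669 entries. The limma test covered the 916 entries with a mean of 1 or more, 58 of them members. The untested members, miR-669n, mir-466k-p3 and miR-467f, were listed between 0 and 3 in every library.

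Small RNA was sequenced from N2A cells, an established mouse neuroblastoma line. Control cells received the siRNA si-NC (3 libraries) and the others an siRNA against circCpsf6, a circular RNA (si-circCpsf6, 3 libraries), each at 100 nM with a lipid reagent. No other genotype or agent separates the groups, and the labels give a single cell line with no clone named. The level of circCpsf6 was not analysed here, so how far it was silenced is not given. Nothing in the labels says that replicates came from separate cultures, and the p-values then cover the spread among these libraries alone, which may be technical.

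All values are the authors' normalized read numbers, rounded to whole numbers. Their sums over all entries ran from 2516481 to 3219618 per library, and since they are normalized the read depth is unknown. The neuronal and neuroendocrine miRNAs that should mark this line were present, with miR-7a-5p between 88548 and 364458 and miR-124-3p between 183 and 711. The liver miRNA miR-122-5p was listed at 0 to 5, the blood miRNA miR-451a at 0 to 17 and the muscle miRNA miR-1a-3p at 32 to 112. Of the pluripotency list (miR-290 and miR-302 clusters), 0 of 7 names matched an entry, and these miRNAs were not analysed here. One library stood apart from the rest, si-NC replicate 3. Limma gave it an array weight of 0.146, against 0.805 to 2.95 for the other libraries, so the results that rest on it are also given without it, beside the result or among the effects of the processing.

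A miRNA is cut from an arm of a folded precursor, the hairpin, and the arm toward the 5′ end gives the 5p product and the other the 3p product. Bases 2 to 8 of the mature miRNA, the seed, pair with messenger RNAs, which are then repressed. Sfmbt2 encodes a Polycomb-related protein and is imprinted, with expression from the paternal copy in tissues outside the embryo proper. The miRNA cluster in its intron is found in rodents, is built from many tandem copies, and is best known from placenta, where its loss impairs growth, and from embryonic stem cells. Because copies are nearly identical, how reads were split between members is uncertain, and the method is not given in the sources used here.

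Mature sequences from RefSeq (GRCm38.p6) were matched for 5 member names, all with hairpins outside the Sfmbt2 intron, and they are shown for their dinucleotide repeats. The sequences of the intron members were not used here, so their seeds are not compared. Capitals mark the seed of the reference sequence. The listed entries of miR-669n (L-2) and miR-467f (1ss8CA) are variants whose suffixes, as read here, alter the start or base 8. Their own seeds may therefore differ.
miR-466i-3p: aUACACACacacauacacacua
miR-467f: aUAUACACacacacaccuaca
miR-466k: uGUGUGUGuacauguacauguga
miR-466j: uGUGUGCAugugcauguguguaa
miR-669n: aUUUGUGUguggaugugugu
The first 2 are rich in A and C, with an unbroken alternating run of 11 bases in miR-466i-3p and 12 in miR-467f. The others are rich in U and G, with runs of 9, 7 and 8 bases in miR-466k, miR-466j and miR-669n. The 5 sequences have 5 different seeds. Only miR-466i-3p, miR-466k and miR-466j share a family number, and miR-466i-3p is a 3p product whereas miR-466k is not. Within that number the seeds of miR-466k and miR-466j, GUGUGUG and GUGUGCA, were alike but not the same. For the other families no comparison was possible. In the precursor of miR-466k the mature part, in capitals below, sits in the 5′ portion.
Mir466k hairpin: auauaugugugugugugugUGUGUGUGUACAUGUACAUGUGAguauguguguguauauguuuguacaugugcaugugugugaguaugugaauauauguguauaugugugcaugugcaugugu
Reads were listed almost wholly for this mature arm: miR-466k was at 191, 250 and 584 in si-NC replicates 1, 2 and 3 and at 277, 237 and 240 in si-circCpsf6 replicates 1, 2 and 3, whereas mir-466k-p3, the opposite arm, was at 0, 0 and 0 and at 1, 0 and 1. The values of miR-466k were shared with a length variant of miR-466p-5p, a member of the Sfmbt2 intron, and the 2 sources cannot be told apart. Its si-circCpsf6 values lay within the si-NC range.

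By hairpin name, most members belong to the Sfmbt2 intron. GENCODE M21 (GRCm38, whereas the submitters' processing notes name mm9) has 81 hairpins with these names, and 71 of them lie on chromosome 2 between 10466663 and 10518279. All 71 are on the strand of Sfmbt2 (10370510 to 10595253), inside a single intron of 62.5 kb (10461473 to 10523944), and 0 overlap a Sfmbt2 exon. Of the 61 members, 53 carry names found in this intron only, 5 carry names placed elsewhere and 3 (miR-466f-3p, miR-466f-5p and miR-466k) could come from either. The stretch between Mir467b and Mir467e holds 26 hairpins, 10 of miR-669, 8 of miR-466 and 8 of miR-467, all of them numbered copies. Names such as miR-669a, with 12 copies, and miR-466b, with 8, therefore stand for many hairpins at once, while 39 members could be placed on 1 hairpin of the intron.

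The cluster was well expressed in N2A cells, though not among the leading miRNAs. Its most abundant member, miR-669c-5p, ranked 66th of all entries by mean. Together the members held 2.02%, 1.98% and 4.35% of the summed values in si-NC replicates 1, 2 and 3 and 2.26%, 1.64% and 2.19% in the si-circCpsf6 libraries. Only si-NC replicate 3 was set apart, the other 5 libraries lying between 1.64% and 2.26%. miR-669 entries were the largest family, with 1.08 ± 0.472% under si-NC and 0.751 ± 0.116% under si-circCpsf6 (means with SD, 3 libraries each, here and below). miR-467 held 0.864 ± 0.471% and 0.694 ± 0.129%, miR-466 held 0.707 ± 0.309% and 0.504 ± 0.0796%, and miR-297 held 0.132 ± 0.107% and 0.0814 ± 0.0212%. Each family followed the same pattern, its highest library being si-NC replicate 3.

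Mean levels within the cluster ran from 0.167 (miR-467f) to 8790 (miR-669c-5p). By mean over the 6 libraries, 15 members were at 1000 or more, 25 between 100 and 1000, 13 between 10 and 100, and 8 under 10. The 12 most abundant made up 75.8% of the cluster's summed values, and 52 members were above 0 in every library.

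**Figure D1:**
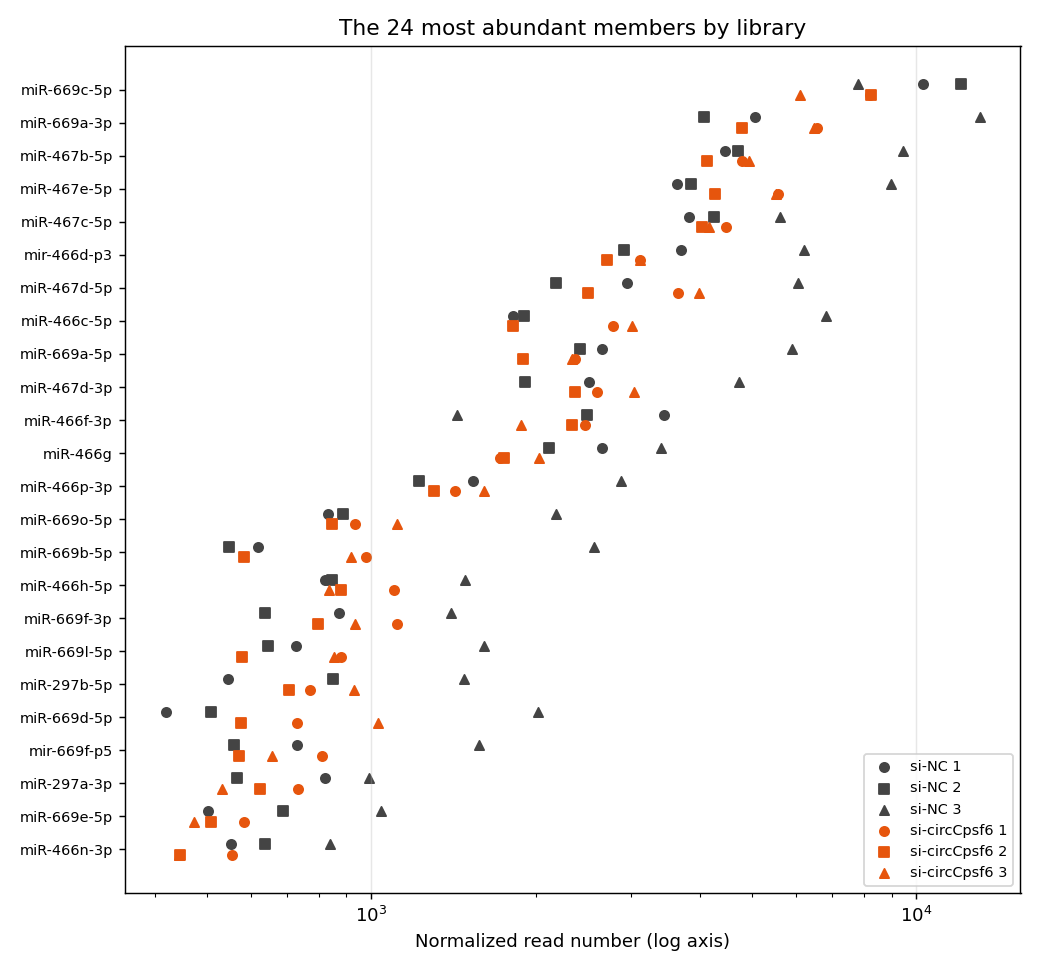
Normalized read numbers (log axis) of the 24 most abundant members, with 1 point per library: grey for si-NC, orange for si-circCpsf6, and circle, square and triangle for replicates 1, 2 and 3. The grey triangle (si-NC replicate 3) lies to the right of the others for most members but to the left for miR-466f-3p, where it is at 1436, and is second lowest for miR-669c-5p, at 7818.

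Among the miR-669 members, miR-669c-5p (hairpin at chromosome 2, 10509296 to 10509404) was listed at 10274, 12055 and 7818 under si-NC, and at 8230, 8243 and 6119 under si-circCpsf6. The groups overlapped through si-NC replicate 3. Its log2 change was -0.41 (SE 0.27, limma adjusted p = 0.771), and -0.58 without that library. miR-669a-3p, read from the 12-copy hairpin whose miRNA is known to restrain MyoD in heart progenitors, was at 5052, 4073 and 13069 under si-NC, and at 6574, 4780 and 6476 under si-circCpsf6. All 3 si-circCpsf6 values fell inside the si-NC range. The 5p product of the same hairpin, miR-669a-5p, was at 2654, 2417 and 5915 and at 2360, 1899 and 2332. Here the groups did not overlap, si-NC being higher (log2 change -0.62, SE 0.37, limma adjusted p = 0.735), but the gap between the nearest libraries, 2417 and 2360, was small. Without si-NC replicate 3 the change was -0.21.

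The miR-467 members at the top of the list were all 5p products except miR-467d-3p, and none separated the groups. miR-467b-5p, known to target lipoprotein lipase in macrophages, was at 4462, 4696 and 9451 under si-NC, and at 4792, 4123 and 4938 under si-circCpsf6. By name its hairpin lies at 10481248 to 10481320, but the entry is a length variant. No member is named miR-467a, which has 10 hairpins in the intron, so whether this entry also holds their reads is not known. miR-467e-5p (10505721 to 10505807) was at 3643, 3851 and 8973 and at 5576, 4263 and 5514. In each case si-NC replicates 1 and 2 were close together and replicate 3 was higher by a factor of 2.06 for miR-467b-5p and 2.39 for miR-467e-5p. miR-467c-5p (10473931 to 10474027) had the most even values, 3818, 4245 and 5616 against 4471, 4048 and 4167. Its log2 change was -0.09 with an SE of 0.25. For miR-467d, both arms were abundant. miR-467d-5p was at 2946, 2183 and 6071 and at 3644, 2501 and 3989, and miR-467d-3p at 2504, 1914 and 4716 and at 2588, 2360 and 3028. The 6 libraries came in the same order for both arms, and their hairpin lies at 10507630 to 10507714.

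The miR-466 members were led by an entry for the 3p arm of miR-466d. This entry, mir-466d-p3 (10511967 to 10512062), was at 3703, 2905 and 6212 under si-NC, and at 3110, 2702 and 3114 under si-circCpsf6 (log2 change -0.45, SE 0.32, limma adjusted p = 0.803), and -0.14 without si-NC replicate 3. Its lowest si-NC library lay between the si-circCpsf6 values. miR-466c-5p was at 1816, 1905 and 6824 and at 2775, 1822 and 3004, so it was low in 3 libraries that included both groups. miR-466f-3p ran the other way in si-NC replicate 3, with 3436, 2482 and 1436 against 2466, 2338 and 1880. miR-466g (10514595 to 10514674) had the smallest p of all members: it was at 2653, 2118 and 3400 under si-NC, and at 1721, 1754 and 2026 under si-circCpsf6. The groups did not overlap, and the log2 change was -0.55 (SE 0.27, limma adjusted p = 0.735). It stayed below 0 with each library left out, from -0.72 to -0.37.

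Among the miR-297 members, the least abundant family, miR-297b-5p (10511667 to 10511775) came first, at 545, 851 and 1478 under si-NC, and at 772, 706 and 930 under si-circCpsf6. All si-circCpsf6 values lay within the si-NC range. The entry mir-297a-2-p3, singled out after its values were seen, was at 416, 337 and 313 and at 283, 239 and 199. It was lower in every si-circCpsf6 library, with a log2 change of -0.57 (SE 0.34, limma adjusted p = 0.735).

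Members placed outside the intron were few and mostly near 0. The exception was miR-466i-3p, from a hairpin on chromosome 13 (17747473 to 17747593) that lies opposite an intron of Cdk13, a kinase gene of transcription. It was at 686, 360 and 266 under si-NC, and at 571, 437 and 487 under si-circCpsf6, a log2 change of 0.29 (SE 0.40, limma adjusted p = 0.948). Without si-NC replicate 3 the change was -0.00, and without si-NC replicate 1 it was 0.68. Its lowest library was si-NC replicate 3, in which the intron members summed to 106830, against 55961 and 53672 in si-NC replicates 1 and 2. Location did not separate low from high members there. Of the 58 tested members, 45 were above both other si-NC libraries in replicate 3 and 10 below both. Intron members such as miR-466h-3p were among those 10. miR-466j, from chromosome 10 (60960723 to 60960844) outside any annotated gene, was at 9, 10 and 29 and at 30, 16 and 16. The groups overlapped, with the 2 highest libraries coming from different groups. miR-669n, from chromosome 3 (115979902 to 115979955, opposite an intron of the zinc transporter gene Slc30a7), was listed at 3 in si-circCpsf6 replicate 3 and at 0 elsewhere. miR-467f, from chromosome 11 (69635400 to 69635519, opposite an intron of Fxr2), was listed at 1 in si-circCpsf6 replicate 1 and at 0 elsewhere. The Mir466k hairpin printed above lies on chromosome 3 (85467377 to 85467498), opposite an intron of Gm37240.

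Across the intron, most of the abundant members placed on 1 hairpin lay 135.2 kb or more from the Sfmbt2 start. Many less abundant placed members lay there as well. Abundant members with several copies, such as miR-669a-3p (mean 6671) and miR-466c-5p (mean 3024), could not be placed. No lean of abundance along the intron can therefore be read from these positions. Of the 39 members placed on 1 hairpin, the 9 with a mean of 1000 or more lay on 8 hairpins between 103.4 kb (miR-467c) and 144.1 kb (miR-466g) from the Sfmbt2 start. The 11 members upstream of this stretch had means of 1.67 to 959, and the 7 downstream of it 3.33 to 994. Within the stretch levels were mixed, since 12 members there were under 1000, down to 5.67 for miR-669g. These limits were taken from the abundant members themselves after the values were seen, so means under 1000 outside them were fixed by that choice.

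**Figure D2:**
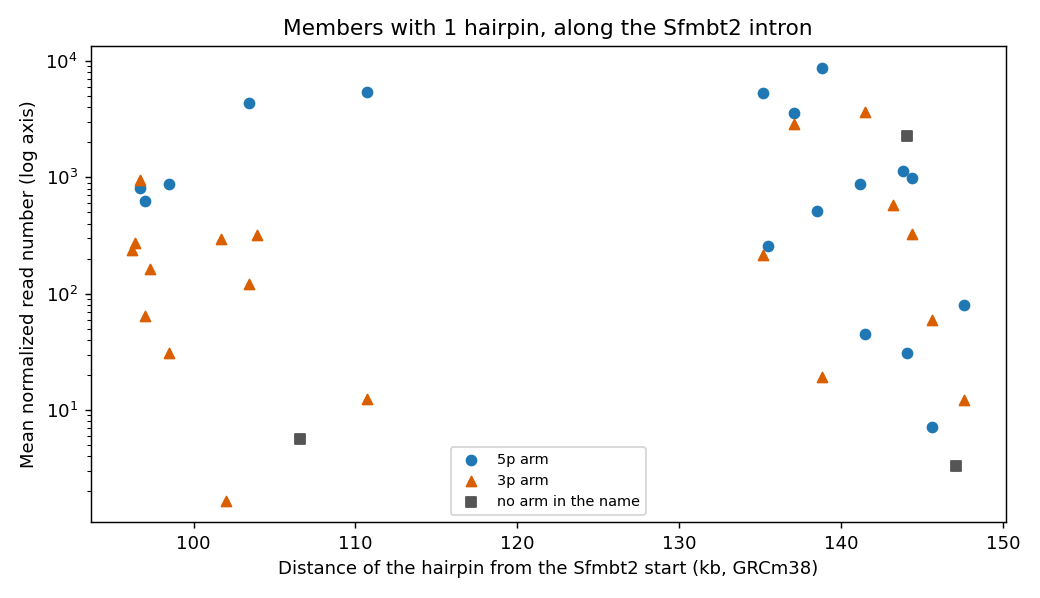
Mean normalized read number over 6 libraries (log axis) against the distance of the hairpin from the Sfmbt2 start, for the 39 members placed on 1 hairpin of the intron: circles for 5p, triangles for 3p, squares for names without an arm. The empty stretch between 110.7 kb (miR-467b) and 135.2 kb (miR-467e) holds the 26 hairpins that are all numbered copies.

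Which arm was kept differed from hairpin to hairpin, and for most hairpins the same arm led in every library. Both arms were listed for 19 member hairpins, with arms summed by name over variants and copies. Where a name has several copies, its arms need not come from the same hairpin. The 5p arm was higher in all 6 libraries for 11 hairpins and the 3p arm in all 6 for 6 hairpins, namely miR-669a, miR-466d, miR-466f, miR-466p, miR-466m and miR-466l. The hairpins with 3p higher in all 6 libraries were, except miR-669a, of the miR-466 family. Yet miR-466h was led by 5p in all 6, with a 5p share of 75.4%, and the miR-467 hairpins were all led by 5p. In 2 others, miR-669f and miR-297a, 3p led in all libraries but 1. The 5p share was most lopsided for miR-669c and miR-467b, at 99.8% in both, and for miR-466d, at 1.23%. miR-467d was close to balance, with 55.5% from the 5p arm.

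**Figure D3:**
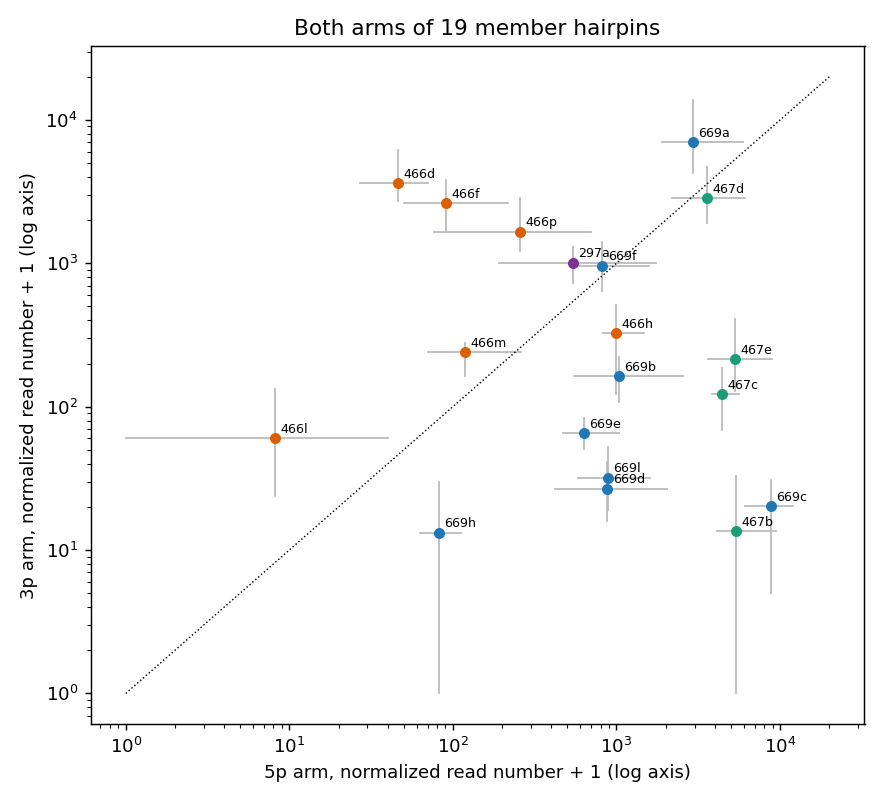
Mean of the 5p arm against the mean of the 3p arm (normalized read number + 1, both axes log) for 19 member hairpins, coloured by family, with grey lines from the lowest to the highest library. The dotted line marks equal arms: miR-669c (8790 and 19.2) and miR-467b (5410 and 12.5) lie far to the 5p side and miR-466d (45.0 and 3624) to the 3p side.

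Balance between the arms gave no difference between the groups by limma. Over all 217 mouse hairpins with both arms, 0 had an adjusted p under 0.05 (0% of hairpins), and 0 of the 19 member hairpins did. At an unadjusted p under 0.05 the counts were 6 over all hairpins (2.76%) and 0 among the members. For miR-669a, the hairpin with the highest summed level, the log2 ratio of 3p to 5p was 0.99, 0.81 and 1.22 under si-NC, and 1.54, 1.38 and 1.55 under si-circCpsf6. All 3 si-circCpsf6 ratios were above the si-NC ratios, with a difference of 0.48 (SE 0.31, limma adjusted p = 0.998). The differences for miR-669c, miR-467d and miR-467e were 1.00 (SE 0.88), -0.06 (SE 0.30) and -0.02 (SE 0.34). For miR-669c the 3p arm was at only 4 to 30 in each library, so its ratio rests on low values. In miR-669f and miR-297a the leading arm was 3p in 5 libraries and 5p in si-NC replicate 3, where miR-669f had 1578 from 5p and 1401 from 3p and miR-297a had 1748 and 1301.

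Treatment with si-circCpsf6 gave no member past the test. By limma on log2(value + 1), 0 of 58 members had an adjusted p under 0.05, and 0 of 916 entries did (0% of entries). At an unadjusted p under 0.05 the counts were 0 members and 57 entries (6.22%). The lowest adjusted p among the members was 0.735. The groups did not overlap for 4 members, against 11.7% of all entries: miR-669a-5p, miR-466g and mir-297a-2-p3, with si-NC higher (as in 4.91% of all entries), and miR-669h-5p, with si-circCpsf6 higher. miR-669h-5p (10518155 to 10518279), singled out after its values were seen, was at 66, 67 and 62 under si-NC, and at 105, 111 and 74 under si-circCpsf6. The change was 0.54 on the log2 scale (SE 0.47, limma adjusted p = 0.884). For 32 members all si-circCpsf6 values fell inside the si-NC range, as they did for 42.2% of all entries.

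The direction of the members depended on 1 library. With all libraries, 42 of 58 members had a log2 change below 0, against 44.3% of all entries, and the median was -0.16, against 0.086 over all entries. Without si-NC replicate 3, 19 of 57 were below 0 and 38 above, and the medians were 0.16 and -0.064. By family, 4 of 5 miR-297, 16 of 22 miR-466, 6 of 8 miR-467 and 16 of 23 miR-669 members were below 0 with all libraries, with medians of -0.26, -0.20, -0.03 and -0.20. Without si-NC replicate 3 the counts below 0 were 2 of 5, 9 of 21, 0 of 8 and 8 of 23, and the medians 0.23, 0.16, 0.32 and 0.13. The summed value of the cluster was 75512 ± 29366 under si-NC and 59530 ± 5828 under si-circCpsf6, and without si-NC replicate 3 the si-circCpsf6 mean was 1.61% higher.

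**Figure D4:**
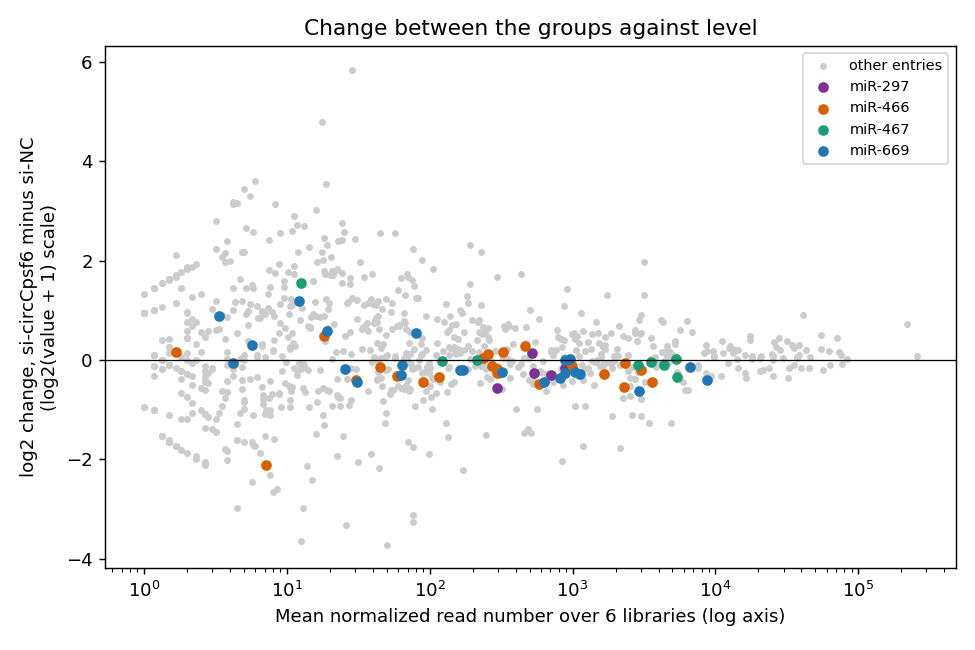
Log2 change between the groups (si-circCpsf6 minus si-NC, log2(value + 1) scale) against the mean over 6 libraries (log axis) for 916 entries, members coloured by family and other entries grey. Most members lie just below 0, with a median of -0.16, and those with a mean of 10 or more run from -0.62 to 1.54.

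The spread between si-NC libraries exceeded that between si-circCpsf6 libraries for 53 of 58 members, as it did for 72.4% of all entries. Among the 53 members with a mean of 10 or more, the median SD of the log2 values was 0.71 over the si-NC libraries, 0.25 over the si-circCpsf6 libraries and 0.24 between si-NC replicates 1 and 2 alone. The same medians over all 623 entries at that level were 0.72, 0.41 and 0.25. The last value of each set rests on 2 libraries. Such an SD tends to come out smaller than an SD over a whole group, so these are not like measures.

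In si-NC replicate 3 the members were mostly high. For 45 of 58 members this library was above both other si-NC libraries, against 27.7% of all entries, and for 41 it was the highest of the 6 libraries, against 20.6% of all entries. It was the lowest of the 6 for 5 members, miR-466f-3p, miR-466i-3p, miR-466h-3p, miR-669h-5p and miR-467b-3p, against 28.8% of all entries. Divided by the mean of the other si-NC libraries, its value had a median of 2.08 over the 53 members with a mean of 10 or more, and 0.783 over the 618 entries at that level with a defined ratio. The ratio was above 2 for 29 of the 53 members and for 19.3% of those entries. By arm, the medians were 2.38 for 24 5p members and 1.86 for 26 3p members, against 0.755 and 0.683 for the other mouse-named 5p and 3p entries.

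**Figure D5:**
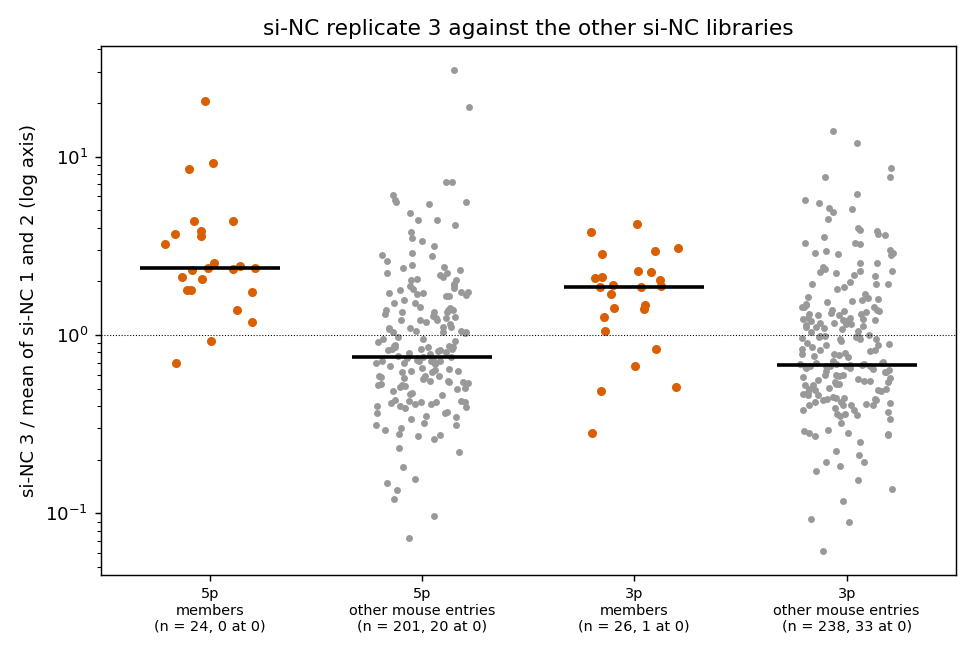
Value in si-NC replicate 3 divided by the mean of si-NC replicates 1 and 2 (log axis), for mouse-named entries with a mean of 10 or more, members in orange and other entries in grey, with the median as a bar; entries at 0 in si-NC replicate 3 are counted under each column but not drawn. The member medians lie at 2.38 (5p) and 1.86 (3p), above the dotted line at 1, and those of the other entries below it, at 0.755 and 0.683.

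The rise was far from even within the cluster. Among members with a mean of 10 or more it was steepest for 3 5p products, singled out after their values were seen: miR-297c-5p, miR-297a-5p and miR-466p-5p. miR-297c-5p (10509016 to 10509113) was at 80, 105 and 1910 under si-NC, and at 286, 128 and 591 under si-circCpsf6, a ratio of 20.6 in si-NC replicate 3. miR-297a-5p was at 190, 190 and 1748 and at 324, 191 and 592, and miR-466p-5p (10506006 to 10506094) at 81, 84 and 702 and at 214, 76 and 385. In all 3, si-circCpsf6 replicate 3 was the second highest library and si-circCpsf6 replicate 2 was near the low si-NC libraries. Their log2 changes between the groups, 0.14, -0.26 and 0.13, had SEs of 1.15, 0.86 and 0.93. Next to miR-297c on the intron lies miR-669c, the most abundant member, whose 5p product had a ratio of 0.700 in the same library.

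Arms of the same hairpin also parted in that library, as in miR-466h, singled out after its values were seen. miR-466h-5p (10514891 to 10514971), known to promote cell death in starved hamster cells, was at 822, 846 and 1482 under si-NC, and at 1100, 881 and 836 under si-circCpsf6. miR-466h-3p from the same hairpin was at 509, 360 and 122 and at 309, 378 and 273. Thus si-NC replicate 3 was the highest of 6 libraries for 1 arm and the lowest for the other. The name miR-466f stands for 4 hairpins. Its ratios of si-NC replicate 3 to the other si-NC libraries were 3.61 for 5p and 0.504 for 3p. Those arms need not share a hairpin, and 5p rows of miR-466f equal to miR-466m-5p were counted under miR-466m. The arms lay on opposite sides of 1 for 5 of 19 member hairpins, against 35.5% of all hairpins, so parting arms were no more frequent here than elsewhere. The 3p to 5p ratio was lowest in si-NC replicate 3 for 10 of the 19, against 38.7% of all hairpins.

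Low members gave little information, as 3 chosen after their values were seen show. miR-466l-5p was at 3, 0 and 39 under si-NC, and at 0, 0 and 1 under si-circCpsf6, and its log2 change of -2.11 (SE 1.38) rested on si-NC replicate 3, without which its mean fell below the limit for testing. Its partner miR-466l-3p (10516097 to 10516217), known to protect the Il10 messenger in macrophages, was at 62, 23 and 131 and at 50, 48 and 40. The si-circCpsf6 values lay inside the si-NC range. miR-467b-3p had the highest log2 change of the members with a mean of 10 or more, 1.54 (SE 1.24), with 9, 14 and 0 under si-NC, and 13, 7 and 32 under si-circCpsf6. Each group held values of 7 to 14, and the change came from the 0 and the 32, falling to 0.34 without si-NC replicate 3.

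Another imprinted cluster known from placenta, Dlk1-Dio3, did not share this order of libraries in its summed values. Its 40 listed members held 0.120%, 0.0493% and 0.0600% of the summed values under si-NC and 0.145%, 0.0825% and 0.153% under si-circCpsf6, so si-NC replicate 3 was among its low libraries. The sum leans on abundant entries such as miR-127-3p, at 796, 269 and 293 in si-NC replicates 1, 2 and 3. Single members differed, and some were highest of the si-NC libraries in replicate 3, as miR-136-5p was, at 22, 5 and 73. The neuronal list held 5.82% in si-NC replicate 3, its lowest library, and at least 6.99% in the others. That fall was the fall of miR-7a-5p, which made up most of the list, at 88548 in si-NC replicate 3 and 182067 and 238295 in si-NC replicates 1 and 2. The other 6 neuronal miRNAs summed to 26924, 23289 and 58006 in the si-NC libraries and to 31115, 23042 and 41465 in the si-circCpsf6 libraries. Their sum, like that of the Sfmbt2 members, was highest in si-NC replicate 3. There miR-218-5p, miR-137-3p and miR-124-3p were above both other si-NC libraries, but the remaining markers were not. In si-NC replicates 1, 2 and 3, miR-375-3p was at 171, 229 and 96 and miR-9-5p at 172, 180 and 154. For miR-128-3p these values were 3123, 3005 and 3003. The part of these markers in the high values of the Sfmbt2 members was not tested, and in bulk RNA fewer cells of a type and less RNA per cell cannot be told apart.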

How the data were processed

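Small RNA libraries were made with the TruSeq small RNA kit from 1 ug of Trizol-extracted RNA, per the labels' protocols. The deposited values are the authors' normalized read numbers per entry, rounded to whole numbers and treated here as a score, per the file headers. They are not raw reads. The genome build was mm9, per the submitters' processing notes. The aligner, counting, normalization and miRNA release were not stated in the material at hand. Samples were grouped by title. Suffixes after an entry name were read as length or substitution variants. The members, lists and named miRNAs were chosen with earlier results of these data known.

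Rows with equal values in all 6 libraries were merged where at least 3 values were above 0, or where the names agreed or belonged to members. Entries with a mean of 1 or more were tested with limma 3.58.1 in R 4.3.3 (trended variance, group as the only term) on log2(value + 1), which understates changes of low entries, with Benjamini-Hochberg adjustment over all entries at 0.05. Ratios of the 3p to the 5p arm were tested the same way over all hairpins. Members named are the 12 most abundant, any with an unadjusted p under 0.05 and a mean of 10 or more, the top of each family, the 5 placed outside the intron and the 4 hairpins with the highest summed level, and any other was chosen after its values were seen. The limma step was tested on simulated data with independent noise and no library set apart. These data differ in that respect, so it does not show what changes could be found here. Hairpins were placed by name with GENCODE M21. Other calculations used Python 3.11.15, numpy 2.4.6, pandas 2.3.3 and matplotlib 3.10.9. Alternatives were pseudocounts of 0.1 and 5, other filters, each library left out, the replicate number as a block, rescaled values, identical rows kept, array weights and a robust variance.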

Additional observations from a re-analysis of the deposited data

How the results depend on the processing

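No member passed limma's adjusted threshold under any alternative listed in the methods, the lowest adjusted p of a member running from 0.157 (array weights) to 0.979 (without si-circCpsf6 replicate 1). At an unadjusted p under 0.05 the count of members was 3 with array weights (22.9% of all entries), 1 without si-NC replicate 2 (5.01%), 1 without si-NC replicate 3 (13.6%) and 0 in the other fits without the block. Arm ratios gave 0 adjusted calls among the member hairpins in the fits compared. With 1 library left out, the median log2 change ran from -0.41 to 0.16, the number of members with a higher value from 7 to 38, and the difference of the summed value from -29.8% to 1.61%, the only sign changes coming without si-NC replicate 3. Array weights, which leave si-NC replicate 3 little weight, also put 39 members higher, with a median of 0.17, and called 31 of 916 entries at the adjusted threshold. Without si-NC replicate 3, 4 of 932 entries were called.

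Over the same fits with a library left out, the log2 change ran from -0.47 to 0.37 for miR-669a-3p, -0.53 to 0.01 for miR-467b-5p, -0.21 to 0.44 for miR-467e-5p, -0.21 to 0.07 for miR-467c-5p, -0.35 to 0.39 for miR-467d-5p and -0.38 to 0.27 for miR-467d-3p. It ran from -0.54 to 0.41 for miR-466c-5p, -0.40 to 0.23 for miR-466f-3p, -0.43 to 0.59 for miR-466h-3p, -0.26 to 0.16 for miR-466h-5p, -0.96 to 0.27 for miR-466l-3p and -0.40 to 1.15 for miR-466p-5p. Of those that kept their sign, mir-466d-p3 ran from -0.69 to -0.14, miR-669a-5p from -0.86 to -0.21, miR-466j from 0.19 to 0.99 and miR-467b-3p from 0.34 to 2.29. For miR-297a-5p, miR-297b-5p and miR-297c-5p the ranges were -0.79 to 0.80, -0.49 to 0.23 and -0.69 to 1.59. With array weights the sign turned for miR-669a-3p (0.34), miR-467c-5p (0.11), miR-467d-5p (0.34), miR-467d-3p (0.16), miR-466c-5p (0.41), miR-466h-3p (-0.43), miR-466h-5p (0.24), miR-466l-3p (0.09), miR-297a-5p (0.64) and miR-297b-5p (0.24), and with libraries rescaled to equal sums for miR-467e-5p (-0.06). The cause of these changes was not tested.

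With the replicate number as a block, 0 members passed, 2 had an unadjusted p under 0.05 (miR-466g and miR-669c-5p, against 9.50% of all entries) and the median stayed at -0.16. Deviations of same-numbered libraries correlated at 0.047, 0.479 and 0.400. The si-NC replicates 2 and 3 correlated best with the si-circCpsf6 library of the same number, and si-NC replicate 1 with si-circCpsf6 replicate 2. The labels give only a number, so whether same-numbered libraries were handled together cannot be told. Read depth is unknown, so no counting error could be given, which matters most for members under 10.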
